A study of Homo sapiens with 9 samples.

Results

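The genes described here encode the proteins that line and anchor the inside of the nuclear envelope, together with a pair of abundant chromatin proteins. They were chosen by symbol: the lamins LMNB1, LMNB2 and LMNA, the inner nuclear membrane proteins LBR, EMD and TMPO, the membrane-spanning proteins SUN1 and SUN2, and the high mobility group box proteins HMGB1 and HMGB2. These are 10 of the 64253 gene identifiers in the count files, and all 10 passed the filter on low counts that left 16561 genes for testing. RNA was sequenced from IMR90, a fibroblast line from human fetal lung with a limited lifespan in culture, in 9 libraries named a, b and c within each of 3 groups. Control cells received a lentiviral pLKO.1 vector, called empty in the sample labels and a GFP vector in the treatment protocol. Cells of the shRRM2 group expressed a short hairpin RNA that targets RRM2, a subunit of the enzyme that makes the building blocks of DNA, and the cells are described in the labels as senescent once those building blocks were depleted. The shRRM2/shp16 group received that hairpin plus another to p16, a CDKN2A product that blocks cell cycle entry, and senescence is called bypassed there in the labels. All groups were grown at 2% oxygen, taken at population doubling 30 and selected with puromycin at 3 ug/mL for 7 days, with the second virus given 24 hours after the first. The p16 hairpin was not used by itself in any group, so it is seen only in cells that also carried shRRM2. The labels do not say whether a, b and c were separate cultures, and p-values then measure only the spread between these libraries, which may be technical.

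The nuclear lamina is a meshwork of lamin filaments under the inner nuclear membrane that shapes the nucleus and holds part of the chromatin at its edge. B-type lamins (LMNB1, LMNB2) keep a lipid anchor in the membrane, whereas the mature A-type lamin, a product of LMNA, loses it and is also found in the nuclear interior. LBR, EMD (emerin) and TMPO (lamina-associated polypeptide LAP2) tie lamins to chromatin, and SUN proteins pass through the inner membrane to the nesprins, which reach the cytoskeleton. HMGB proteins bend DNA inside the nucleus, and HMGB1 also acts as a danger signal outside the cell. Loss of LMNB1 and release of nuclear HMGB1 are widely used markers of senescent fibroblasts.

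Promoter sequence is shown for LMNB1 and TMPO, because among members with a promoter window in the RefSeq table (GRCh38.p14) these fell most in shRRM2. Each run holds the 250 bases before the RefSeq start on the plus strand, read 5′ to 3′, and capitals mark CCAAT or its reverse complement ATTGG. The LMNB1 window is chr5:126776886-126777135 and the TMPO window is chr12:98515340-98515589.
LMNB1: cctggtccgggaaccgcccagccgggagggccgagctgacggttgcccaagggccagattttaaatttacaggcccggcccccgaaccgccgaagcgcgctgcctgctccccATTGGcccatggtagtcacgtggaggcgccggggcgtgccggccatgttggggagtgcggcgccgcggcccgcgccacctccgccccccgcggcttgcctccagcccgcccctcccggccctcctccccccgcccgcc
TMPO: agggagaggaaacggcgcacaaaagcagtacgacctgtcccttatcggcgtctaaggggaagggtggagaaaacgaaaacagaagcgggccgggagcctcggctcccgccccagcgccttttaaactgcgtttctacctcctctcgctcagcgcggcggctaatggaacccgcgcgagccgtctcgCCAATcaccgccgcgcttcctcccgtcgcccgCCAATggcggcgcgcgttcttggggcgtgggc
In LMNB1 the match begins 138 bases before the start, and in TMPO the matches begin 64 and 32 bases before it. Windows were in the table for 8 of the 10 members, all except SUN1 and HMGB2, and where a gene had several the one nearest the principal GENCODE start was read. CCAAT was found on either strand in 4 of the 8 (LMNB1, EMD, TMPO and HMGB1), against 32.0% of 35114 windows of the same length. E2F-type letters, namely TTCCCGC together with TTGGCGC as well as TTCGCGC and also TTGCCGC on either strand, were in 0 of the 8 against 10.9% of all windows. CHR letters (TTTGAA or TTCGAA, either strand) were in 2, LMNB2 and HMGB1, against 14.3%. These counts depend on the window read, since the LMNA window lies 7991 bases from its principal start. Over any window of a gene, CCAAT was in 6 of the 8 against 37.0% of 27303 genes, E2F-type letters in LMNA alone against 13.0%, and CHR letters in 3 against 17.2%. These matches are a description of letters in a window, not of bound sites.

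The libraries held 15770895 to 24873291 gene-assigned reads, and no pair of libraries within a group was the same within sampling noise. RRM2 was at 485 ± 5.23 CPM (read counts scaled to library size; SD, n = 3) in control, 62.1 ± 1.86 in shRRM2 and 177 ± 3.0 in shRRM2/shp16. That left 12.8% of the control level in shRRM2 and 36.5% in shRRM2/shp16. The knockdown groups thus differed in RRM2 level as well as in the p16 hairpin, and the part of each in their differences was not tested. CDKN2A was low in every library, at 79 to 142 reads. It did not pass in shRRM2 against control, at a log2 fold change of 0.11 ± 0.12 (SE; edgeR quasi-likelihood test, adjusted p = 0.431). In shRRM2/shp16 CDKN2A was lower than in shRRM2 by -0.60 ± 0.13 (same test, adjusted p = 7.0e-05), at 65.8% of the shRRM2 level. The count sums all isoforms of the gene, so these values do not measure p16 RNA alone. All 10 fibroblast markers were at 1 CPM or more in each group, and their summed level ranged from 22902 to 28019 CPM. The sum does not show single markers. In shRRM2/shp16 against control 4 were higher and 5 lower, with 2 at least 2-fold higher and 2 at least 2-fold lower. Of all genes tested, 30.0% passed as higher and 32.4% as lower there. The epithelial markers KRT5, SFTPC and SCGB1A1 were at 0 counts in every library, and the epithelial list summed to at most 2.15 CPM. The blood cell list summed to 1.05 to 1.79 CPM in control, 3.0 to 3.3 in shRRM2 and 2.1 to 2.38 in shRRM2/shp16, mostly LYZ, which was higher in shRRM2 than in control by 0.93 ± 0.22 on the log2 scale (adjusted p = 3.8e-04). Of the other lists, the 5 endothelial markers summed to 65.3 to 73.0 CPM in control and shRRM2 and 115 to 124 CPM in shRRM2/shp16, of which TEK alone made up means of 65.2, 67.4 and 115 CPM, while PECAM1, VWF and KDR were at means of at most 3.58 CPM and CDH5 was lower still. The 4 smooth muscle markers summed to 931 to 964 CPM in control, 754 to 783 in shRRM2 and 262 to 275 in shRRM2/shp16. Reads outside annotated genes also moved with the groups, at 17.6% to 18.9% of uniquely aligned reads in control, 27.7% to 28.8% in shRRM2 and 23.5% to 24.4% in shRRM2/shp16. The part of any of these in the results that follow was not tested. In bulk RNA, fewer cells of a type and less RNA per cell cannot be told apart.

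Most lamina and HMGB transcripts were lower in shRRM2 than in control. In shRRM2 against control, 9 of the 10 members fell, none rose, and SUN1 did not pass the test (edgeR quasi-likelihood test over all 9 libraries, adjusted p under 0.05), where 60.9% of all genes tested passed and 31.8% passed as lower. The median log2 fold change of the members was -1.17, beside 0.00 for all genes tested. LMNB1, HMGB2, TMPO, LBR, LMNB2 and HMGB1 fell by at least 2-fold, which 3.26% of all genes tested did. The libraries of the 2 groups did not overlap in 9 members, beside 63.6% of all genes tested. LMNB1 fell most among the members, and 85 of the 16561 genes tested (0.513%) had a lower log2 fold change. In shRRM2/shp16 against control all 10 members were lower, with a median of -1.01, where 62.4% of all genes passed in either direction and 32.4% as lower. LMNB1, LMNB2, HMGB2, TMPO and LMNA were lower by at least 2-fold there, beside 6.0% of all genes. The groups did not overlap in any of the 10, beside 66.2% of all genes.

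In shRRM2/shp16 against shRRM2 the members split. LMNB1, HMGB1, LBR, HMGB2, SUN2 and TMPO were higher, LMNA, SUN1 and LMNB2 were lower, and EMD did not pass, where 61.1% of all genes tested passed, 31.9% as higher and 29.1% as lower. The median was 0.35, beside 0.01 for all genes tested, and the groups did not overlap in 9 members, beside 64.7% of all genes. None of the 10 was lower by at least 2-fold, beside 6.58% of all genes. With limma on RPKM values in place of counts, 4 or 5 members passed here, and with the 1 RPKM column that did not match its count file left out, 8 passed. The 3 comparisons share libraries and are given side by side, not as independent evidence.

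**Figure D1:**
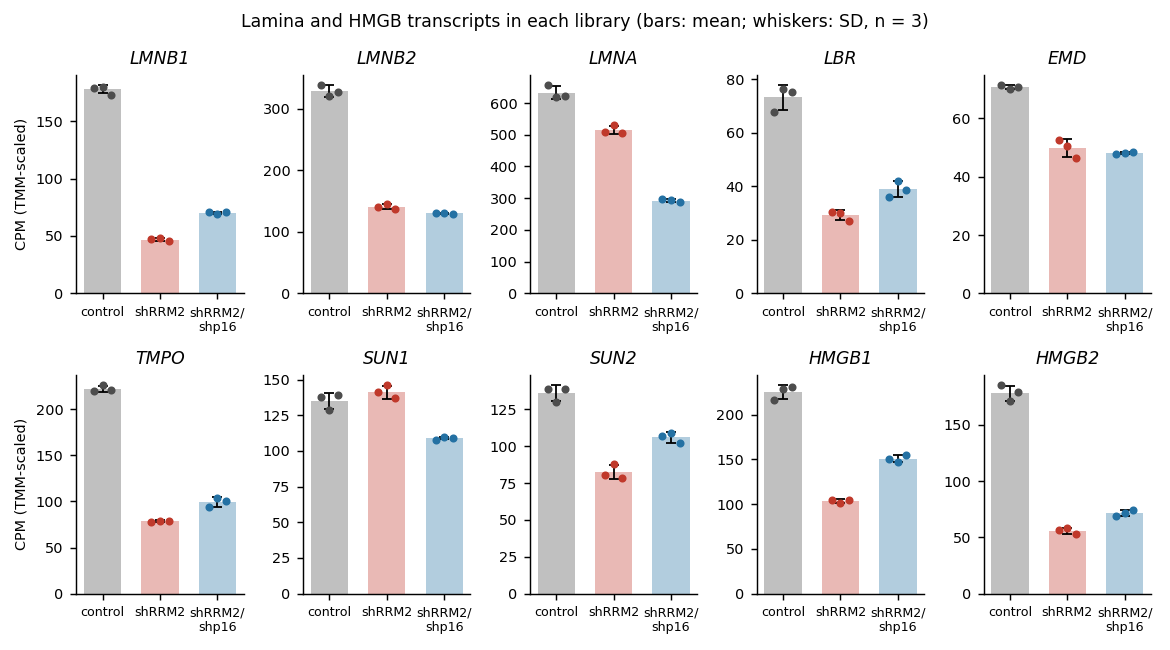
CPM (vertical axes, TMM-scaled, starting at 0) for the 10 members in each of 9 libraries. Points are libraries, bars are group means and whiskers are SD (n = 3); the LMNB1 libraries lie at 173 to 180 in control, 45.6 to 47.9 in shRRM2 and 69.3 to 71.0 in shRRM2/shp16, while SUN1 in shRRM2 overlaps control.

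Among the lamins, both B-type genes lost more RNA in shRRM2 than the A-type gene did, and the lamins then differed in how shRRM2/shp16 compared with shRRM2. LMNB1 (ENSG00000113368; GRCh38 chr5:126776623-126837020, plus strand) encodes lamin B1. It was at 179, 180 and 173 CPM in control libraries a, b and c, at 47.2, 47.9 and 45.6 in shRRM2, and at 70.8, 69.3 and 71.0 in shRRM2/shp16. No library of any group overlapped another group, and the doubly targeted libraries lay between the other groups but nearer to shRRM2. The log2 fold change in shRRM2 against control was -1.92 ± 0.04 (SE; adjusted p = 1.3e-35), which left 26.4% of the control level (95% interval 25% to 27.9%). In shRRM2/shp16 LMNB1 was higher than in shRRM2 by 0.59 ± 0.04 (adjusted p = 8.9e-16) and stayed lower than in control by -1.34 ± 0.04 (adjusted p = 1.6e-31), at 39.6% of the control level. The gain over shRRM2 depended on the values used: limma on log2(RPKM + 0.1) gave 0.35 with an adjusted p of 0.124. Adjusted p over the alternatives, with limma on the deposited log2 values and their large pseudocount among them, spanned 1.4e-37 to 0.369. The log2(RPKM + 0.1) fit uses the RPKM column of shRRM2 replicate c, which does not match its count file. Without that column it gave 0.62 (adjusted p = 1.7e-07).

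LMNB2 (ENSG00000176619; chr19:2427638-2456996, minus strand) encodes lamin B2, and its annotated span overlaps TIMM13 and MIR7108 on the same strand. It was at 339, 321 and 328 CPM in control, 140, 145 and 138 in shRRM2, and 130, 131 and 129 in shRRM2/shp16. Control stood far above both knockdown groups, and on this TMM-scaled measure shRRM2/shp16 was the lowest group without overlap. As RPKM from counts, without TMM scaling, the knockdown groups met at 25.1 in shRRM2 replicate c and shRRM2/shp16 replicate b. The drop in shRRM2 was -1.22 ± 0.03 on the log2 scale (adjusted p = 6.8e-32), to 42.8% of control. Unlike LMNB1, LMNB2 was not higher in shRRM2/shp16 than in shRRM2: the doubly targeted cells were lower than shRRM2 by -0.11 ± 0.03 (adjusted p = 0.00342), a level of 92.4% (88.1% to 96.9%). That small difference was past the threshold on counts but not with limma on log2(RPKM + 0.1), at an adjusted p of 0.0541, or with the mismatched column left out, at 0.0509 (range over the alternatives 0.00132 to 0.175).

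LMNA (ENSG00000160789; chr1:156082573-156140089, plus strand) encodes lamins A and C, and the count sums its isoforms. It was at 657, 619 and 623 CPM in control, 508, 531 and 506 in shRRM2, and 297, 293 and 287 in shRRM2/shp16. The groups stepped down without overlap, and the larger step was the one between the knockdown groups. In shRRM2 it fell by -0.30 ± 0.03 on the log2 scale (adjusted p = 1.8e-12), to 81.4% of control. The p16 hairpin group was below shRRM2 by -0.82 ± 0.03 (adjusted p = 4.3e-27), at 56.7%, and below control by -1.12 ± 0.03 (adjusted p = 2.1e-32), at 46.2%. LMNA was thus at 46.2%, LMNB1 at 39.6% and LMNB2 at 39.5% of their control levels in the doubly targeted cells.

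The balance between the lamin types was read as a share of reads per base of gene length, which compares genes of different length. The lengths sum over all isoforms, and the level of a share depends on them. LMNB1 and LMNB2 together made up 54.3%, 55.0% and 54.8% of lamin reads per base in control, 34.7%, 34.4% and 34.3% in shRRM2, and 50.5%, 50.7% and 51.4% in shRRM2/shp16. The shRRM2 libraries stood about 20 percentage points below control, and the doubly targeted libraries were between, close to control but not overlapping it. In shRRM2 the share was -20.2 points from control. The shRRM2/shp16 share was 16.4 points from shRRM2 and -3.84 points from control. Each had a two-sided exact permutation p of 0.1, the smallest that 3 libraries against 3 allow, and 0.1 after adjustment over the 9 tests on shares. The near-control share in shRRM2/shp16 was reached with every lamin below its control level, not with B-type lamins back at it.

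LBR, the lamin B receptor, and TMPO changed by amounts closer to those of the B-type lamins than EMD did in shRRM2. LBR (ENSG00000143815; chr1:225401502-225428925, minus strand) binds B-type lamins and heterochromatin protein 1 and also has a sterol reductase domain. It was at 67.9, 76.4 and 75.4 CPM in control, 30.6, 29.9 and 27.1 in shRRM2, and 36.0, 42.0 and 38.5 in shRRM2/shp16. All groups were apart, though the doubly targeted libraries lay close above shRRM2. The log2 fold change was -1.32 ± 0.06 in shRRM2 against control (adjusted p = 1.1e-23), which left 36.9% to 43.3% of control (95% interval). In shRRM2/shp16 it was 0.41 ± 0.06 above shRRM2 (adjusted p = 2.0e-07) and -0.91 ± 0.05 below control (adjusted p = 2.9e-19). The gain over shRRM2 was not past the threshold with limma on log2(RPKM + 0.1), at 0.23 and an adjusted p of 0.189 (range over the alternatives 1.1e-12 to 0.451). Without the mismatched shRRM2 column the same fit gave 0.41 (adjusted p = 0.00136).

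TMPO (ENSG00000120802; chr12:98515512-98550379, plus strand) encodes the LAP2 proteins, of which some sit in the inner membrane and LAP2alpha is free in the nucleus. It was at 220, 226 and 221 CPM in control, 77.3, 79.2 and 79.0 in shRRM2, and 93.9, 104 and 101 in shRRM2/shp16. The shRRM2 libraries were the lowest, and no groups overlapped. TMPO fell by -1.50 ± 0.04 in shRRM2 (adjusted p = 9.1e-33), to 35.3% of control. In shRRM2/shp16 it was higher than in shRRM2 by 0.34 ± 0.04 (adjusted p = 4.0e-10), and at 44.8% of control. With limma on log2(RPKM + 0.1) the gain was 0.23 with an adjusted p of 0.149 (range over the alternatives 3.0e-18 to 0.381), and without the mismatched shRRM2 column 0.40 (adjusted p = 7.3e-05). The antisense gene TMPO-AS1 overlaps TMPO, and without a stated strand setting their reads in the shared stretch cannot be told apart.

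EMD (ENSG00000102119; chrX:154379197-154381523, plus strand) encodes emerin, which binds A-type lamins. It was at 71.4, 69.9 and 70.7 CPM in control, 52.4, 50.6 and 46.5 in shRRM2, and 47.8, 48.0 and 48.5 in shRRM2/shp16. Control was higher than every knockdown library, and the knockdown groups overlapped. EMD fell by -0.51 ± 0.05 in shRRM2 (adjusted p = 6.9e-13), to 70.4% of control. Between shRRM2/shp16 and shRRM2 the log2 fold change was -0.05 ± 0.05 (adjusted p = 0.384), and the 95% interval of the ratio ran from 90.3% to 103%.

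**Figure D2:**
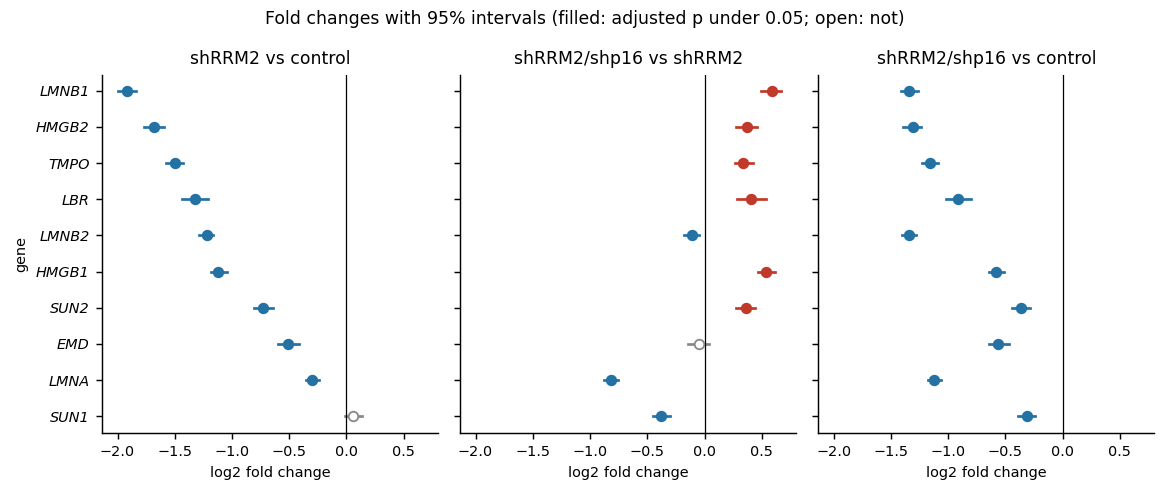
Log2 fold change (horizontal axis) with 95% interval of each member in the 3 comparisons, genes ordered by their change in shRRM2 against control. Filled points passed an adjusted p of 0.05 and open points did not; values run from -1.92 for LMNB1 to 0.06 for SUN1 in the first panel, and LMNA at -0.82 is the lowest in the second.

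The SUN genes, whose products form the inner membrane end of the bridge to the cytoskeleton, did not move alike. SUN1 (ENSG00000164828; chr7:816615-896435, plus strand) was at 138, 129 and 139 CPM in control, 141, 146 and 137 in shRRM2, and 108, 110 and 109 in shRRM2/shp16. Control and shRRM2 overlapped, and the doubly targeted libraries were below both. In shRRM2 against control its log2 fold change was 0.06 ± 0.04 (adjusted p = 0.135), a level of 104% with a 95% interval of 99.3% to 110%. Under 3 alternatives it passed as higher, such as 0.09 with shRRM2 replicate c left out (adjusted p = 0.0436, range over the alternatives 0.0207 to 0.737). In shRRM2/shp16 SUN1 was below shRRM2 by -0.38 ± 0.04 (adjusted p = 4.7e-12) and below control by -0.31 ± 0.04 (adjusted p = 4.0e-10).

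SUN2 (ENSG00000100242; chr22:38734725-38794143, minus strand) was at 139, 130 and 139 CPM in control, 80.7, 87.7 and 78.5 in shRRM2, and 107, 109 and 102 in shRRM2/shp16. It was lowest in shRRM2 and intermediate in shRRM2/shp16, with no overlap. SUN2 fell by -0.73 ± 0.04 in shRRM2 (adjusted p = 1.2e-19), to 60.4% of control, and was higher in shRRM2/shp16 than in shRRM2 by 0.36 ± 0.04 (adjusted p = 3.7e-10), at 77.8% of control. The spans of both SUN genes overlap other genes on either strand, GET4 for SUN1 and DNAL4 and GTPBP1 for SUN2 among them. Reads ambiguous between genes were tallied apart from the gene counts, at 3.74% to 6.02% of uniquely aligned reads. How many of them came from these spans was not tested.

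As a share of SUN1 plus SUN2 reads per base, SUN1 made up 35.3%, 35.2% and 35.4% in control, 49.0%, 47.8% and 49.0% in shRRM2, and 35.6%, 35.7% and 37.1% in shRRM2/shp16. On this scale the SUN balance was near even in shRRM2, while the control and doubly targeted libraries lay within a few points of each other. The level of the share depends on the gene lengths used. By CPM, not divided by length, SUN1 and SUN2 were at means of 135 and 136 in control. They were at 141 and 82.3 in shRRM2 and at 109 and 106 in shRRM2/shp16. The shRRM2 share was 13.3 points from control, and the shRRM2/shp16 share was -12.5 points from shRRM2 and 0.79 from control (two-sided exact permutation p = 0.1 each, the smallest possible, and 0.1 adjusted over 9 tests).

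Both HMGB genes fell in shRRM2, HMGB2 to a lower fraction of its control level than HMGB1. HMGB1 (ENSG00000189403; chr13:30456704-30617597, minus strand) was at 216, 229 and 231 CPM in control, 105, 101 and 105 in shRRM2, and 151, 147 and 155 in shRRM2/shp16. The groups were well apart, with shRRM2/shp16 in the middle. HMGB1 fell by -1.12 ± 0.03 in shRRM2 (adjusted p = 7.7e-29), to 46.2% of control. In shRRM2/shp16 it was higher than in shRRM2 by 0.54 ± 0.04 (adjusted p = 3.5e-17) and lower than in control by -0.58 ± 0.03 (adjusted p = 1.4e-19), at 67.0%. HMGB1 has 48 named pseudogenes in the annotation, and reads shared with near-identical copies make its count uncertain. Reads without a unique alignment were tallied apart from the gene counts, at 40.3% to 44.9% of all reads tallied.

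HMGB2 (ENSG00000164104; chr4:173331695-173335125, minus strand) was at 185, 171 and 179 CPM in control, 56.6, 58.1 and 52.6 in shRRM2, and 69.1, 71.9 and 74.5 in shRRM2/shp16. Both knockdown groups were far below control, and they did not overlap each other. HMGB2 fell by -1.68 ± 0.04 in shRRM2 (adjusted p = 1.2e-32), to 31.2% of control. The doubly targeted cells were above shRRM2 by 0.37 ± 0.05 (adjusted p = 2.7e-09) and below control by -1.31 ± 0.04 (adjusted p = 6.0e-30), at 40.2%. On the deposited log2 values limma gave an adjusted p of 0.0773 for the gain over shRRM2, or 0.17 without the filter on low values. The pseudocount of those values is far above the level of HMGB2, and on counts the adjusted p was 2.7e-09. On log2(RPKM + 0.1) the gain passed both with the mismatched shRRM2 column (adjusted p = 0.0442) and without it (adjusted p = 3.6e-05).

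Per base of gene length, HMGB2 made up 70.4%, 67.5% and 68.4% of HMGB1 plus HMGB2 reads in control, 59.9%, 61.4% and 58.2% in shRRM2, and 56.1%, 57.6% and 57.2% in shRRM2/shp16. The share was highest in control, and the doubly targeted libraries were the lowest. Its level depends on the gene lengths used: by CPM, HMGB2 was below HMGB1 in control, at means of 178 and 225. The shRRM2 share was -8.91 points from control, and the shRRM2/shp16 share was -2.88 points from shRRM2 and -11.8 from control, each with a two-sided exact permutation p of 0.1, the smallest possible, and 0.1 adjusted over 9 tests. In contrast to the lamin and SUN shares, the HMGB2 share in shRRM2/shp16 lay farther from control than the share in shRRM2 did.

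**Figure D3:**
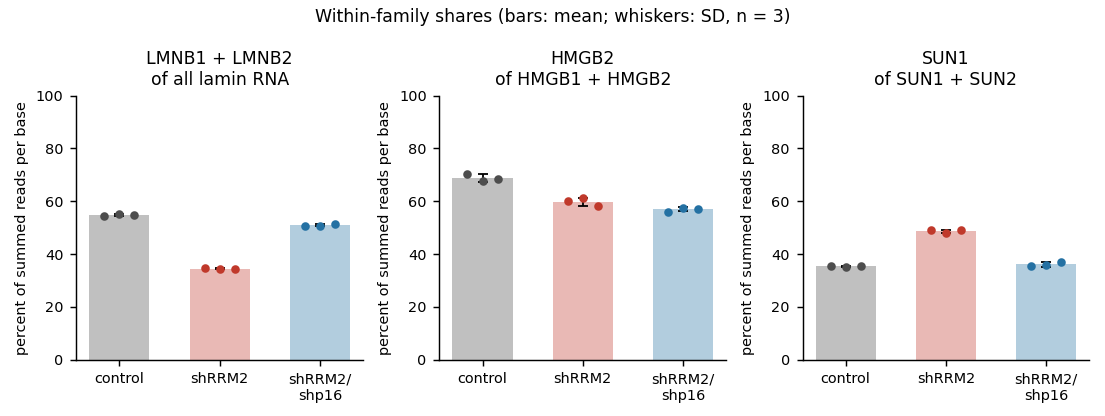
Percent of summed reads per base of gene length (vertical axes, from 0 to 100) taken by B-type lamins among lamins, by HMGB2 among HMGB1 and HMGB2, and by SUN1 among SUN1 and SUN2. Points are libraries, bars are means and whiskers are SD (n = 3); the lamin means are 54.7, 34.5 and 50.9, the HMGB2 means 68.8, 59.8 and 57.0, and the SUN1 means 35.3, 48.6 and 36.1 in control, shRRM2 and shRRM2/shp16.

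To compare members with each other, CPM was divided by the gene length in kilobases that the authors' RPKM values imply, a length that sums over all isoforms. On this scale LMNA was the highest member in every group, at 90.6 ± 2.94 CPM per kilobase in control, 73.8 in shRRM2 and 41.9 in shRRM2/shp16 (means, n = 3). In control it was followed by HMGB2 at 64.3 and LMNB2 at 60.6, whose libraries overlapped, and then by LMNB1 at 48.9, EMD at 35.0, HMGB1 at 29.2, TMPO at 25.9, SUN2 at 21.0, LBR at 13.9 and SUN1 at 11.5. In shRRM2 the order below LMNA was LMNB2 at 25.9, EMD at 24.7, HMGB2 at 20.1, HMGB1 at 13.5, LMNB1 at 12.9, SUN2 at 12.7, SUN1 at 12, TMPO at 9.13 and LBR at 5.56. LMNB2 and EMD overlapped there, as did each neighbouring pair from HMGB1 to SUN1. EMD thus stood level with LMNB2 and above LMNB1 and HMGB2 in shRRM2, although it was below all of them in control. In shRRM2/shp16 HMGB2 at 25.9, LMNB2 at 24.0 and EMD at 23.8 followed LMNA, and LBR was again the lowest at 7.39.

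The genes whose levels over the 9 libraries were most like those of LMNB1 were sought among 11385 genes with a symbol and a mean log2 CPM of at least 2. Likeness was the root mean square difference of log2 CPM after subtracting each gene's control mean. The 5 nearest were CCNB1 at 0.0585, UBE2C at 0.0599, CCNF at 0.07, CDKN2C at 0.0771 and CCNA2 at 0.0876. CCNB1, CCNA2 and CCNF encode cyclins, UBE2C an enzyme that marks mitotic proteins for destruction, and CDKN2C the cell cycle inhibitor p18. For HMGB2 the 5 nearest were KIF2C at 0.0615, SPC24 at 0.068, RNASEH2A at 0.0686, ESPL1 at 0.0739 and CCNA2 at 0.0793. KIF2C and SPC24 work at kinetochores, ESPL1 is the separase that splits sister chromatids, and RNASEH2A is a subunit of an enzyme that removes RNA from DNA. HMGB2 and LMNB1 were 0.147 apart and HMGB2 and TMPO 0.146, whereas LMNB2 was 0.402, LBR 0.43, HMGB1 0.639 and SUN1 1.29 from LMNB1.

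On a list of 10 cell cycle genes, given for context, all 10 fell in shRRM2 with a median log2 fold change of -1.59. All 10 were also lower in shRRM2/shp16 than in control, with a median of -1.30. Among all genes tested, 31.8% and 32.4% passed as lower in these comparisons. Against shRRM2, 7 of the 10 were higher in shRRM2/shp16, where 31.9% of all genes tested passed as higher and 29.1% as lower. MCM2 was lower at -0.32 ± 0.06 (adjusted p = 1.0e-05), and AURKB and PCNA did not pass, with a list median of 0.35. In shRRM2 the lowest were PLK1 at -2.13 ± 0.04, CCNB1 at -1.98 ± 0.04 and CCNA2 at -1.78 ± 0.04, values close to the -1.92 of LMNB1. TOP2A at 0.74 ± 0.03, CCNB1 at 0.70 ± 0.04 and CDK1 at 0.60 ± 0.05 were the highest against shRRM2, where LMNB1 was at 0.59. Against control, PLK1 at -1.57 ± 0.04, AURKB at -1.56 ± 0.05 and MKI67 at -1.41 ± 0.03 were the lowest in shRRM2/shp16. Whether cell cycle position has a part in the changes of LMNB1, TMPO or HMGB2 was not tested.

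Of 29 other nuclear envelope genes listed, 26 were tested, and in shRRM2 against control each changed by less than the B-type lamins, LBR and TMPO did. NRM was listed at 0 in every library under each of the 7 gene IDs that carry its symbol, which does not show that its RNA is absent where copies share reads, and SYNE4 and NUP210 had at most 7 and 8 reads. In shRRM2 against control 18 of the 26 fell and 7 rose, with a median of -0.36 and none changed by 2-fold. By comparison, 60.9% of all genes tested passed there, 31.8% as lower, and 3.26% were lower by at least 2-fold. The lowest were NEMP1, an inner membrane protein, at -0.81 ± 0.05 (adjusted p = 1.4e-19), the pore subunit NUP107 at -0.81 ± 0.05, and ICMT, which methylates the lipid-modified end of B-type lamins, at -0.76 ± 0.03. The highest were SYNE1 (nesprin-1) at 0.38 ± 0.03 (adjusted p = 3.1e-15), TOR1AIP2 at 0.32 ± 0.03, a membrane activator of torsins, and TPR, the nuclear basket protein, at 0.27 ± 0.03. Of the genes for heterochromatin protein 1, which binds LBR, CBX5 fell by -0.61 ± 0.03, CBX1 by -0.65 ± 0.04 and CBX3 by -0.44 ± 0.04. BANF1, which links LEM-domain proteins such as emerin to DNA, fell by -0.72 ± 0.04, while the lamin A protease gene ZMPSTE24 rose by 0.17 ± 0.04.

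In shRRM2/shp16 against shRRM2, 9 of these 26 were higher, 9 were lower and 8 did not pass, with a median of 0.04, shares near the 31.9% higher and 29.1% lower of all genes tested. SYNE3 (nesprin-3, which links the nucleus to intermediate filaments through plectin) was at 37.1 ± 2.87 CPM in control, 28.9 ± 0.729 in shRRM2 and 9.32 ± 0.74 in shRRM2/shp16 (SD, n = 3). The larger step was between the knockdown groups, at -1.64 ± 0.08 on the log2 scale (adjusted p = 3.2e-22) against shRRM2, beside -1.99 ± 0.07 (adjusted p = 2.0e-26) against control. ANKLE2 at -0.50 ± 0.03 and SYNE2 (nesprin-2) at -0.37 ± 0.05 were the next lowest. TOR1AIP1 (LAP1, a lamin-binding torsin activator) was the highest at 0.52 ± 0.05, followed by CBX3 at 0.44 ± 0.04 and TOR1A at 0.39 ± 0.04. Against control, where 32.4% of all genes tested passed as lower and 30.0% as higher, 16 of the 26 were lower in shRRM2/shp16 and 7 higher. Their median was -0.27. SYNE3, SYNE2 at -1.0 ± 0.05 and NUP93 at -0.89 ± 0.05 were lowest there, and TPR at 0.58 ± 0.03, FNTA at 0.29 ± 0.05 and TOR1AIP2 at 0.23 ± 0.03 were highest.

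Of 9 other high mobility group genes listed, 8 were tested, HMGB4 being at 0 counts throughout. In shRRM2 against control 6 fell, HMGA2 rose and HMGN5 did not pass, with a median of -0.47. Among all genes tested, 60.9% passed there and 31.8% passed as lower. HMGB3, the third member of the HMGB family, was at 68.1 ± 1.42 CPM in control, 21.2 ± 1.01 in shRRM2 and 42.2 ± 0.3 in shRRM2/shp16 (SD, n = 3). It fell by -1.68 ± 0.05 in shRRM2 (adjusted p = 8.2e-29), like HMGB2, but was higher in shRRM2/shp16 than in shRRM2 by 0.99 ± 0.06 (adjusted p = 1.3e-19). HMGN2, a nucleosome-binding protein, fell by -1.46 ± 0.03 in shRRM2 and was 0.36 ± 0.04 higher in shRRM2/shp16, and HMGN1 fell by -0.64 ± 0.04 and was 0.31 ± 0.04 higher.

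The HMGA genes, whose products bind the minor groove of AT-rich DNA, did otherwise. HMGA2 was at 322 ± 13.2 CPM in control, 535 ± 4.86 in shRRM2 and 236 ± 7.63 in shRRM2/shp16 (SD, n = 3), with log2 fold changes of 0.73 ± 0.03 in shRRM2 against control (adjusted p = 9.8e-25) and -1.18 ± 0.03 in shRRM2/shp16 against shRRM2 (adjusted p = 2.4e-32). HMGA1 was at 835 ± 5.72, 700 ± 3.97 and 262 ± 6.93 CPM, and the larger drop, -1.42 ± 0.03 (adjusted p = 3.0e-37), was in shRRM2/shp16 against shRRM2. In that comparison 5 of the 8 genes were higher, HMGA1 and HMGA2 were lower and HMGN5 did not pass, with a median of 0.21. Of all genes tested, 31.9% passed as higher and 29.1% as lower there. Against control, where 32.4% of all genes tested passed as lower and 30.0% as higher, 7 of the 8 were lower in shRRM2/shp16 and none higher. Their median was -0.43, and HMGA1 at -1.67 ± 0.03, HMGN2 at -1.10 ± 0.03 and HMGB3 at -0.69 ± 0.05 were the lowest. Of the cell surface receptors for HMGB1, AGER was listed at 0 in every library under each of the 7 gene IDs that carry its symbol, and as for NRM this does not show absence. TLR4 had at most 2 reads and TLR2 at most 14, too few for testing.

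**Figure D4:**
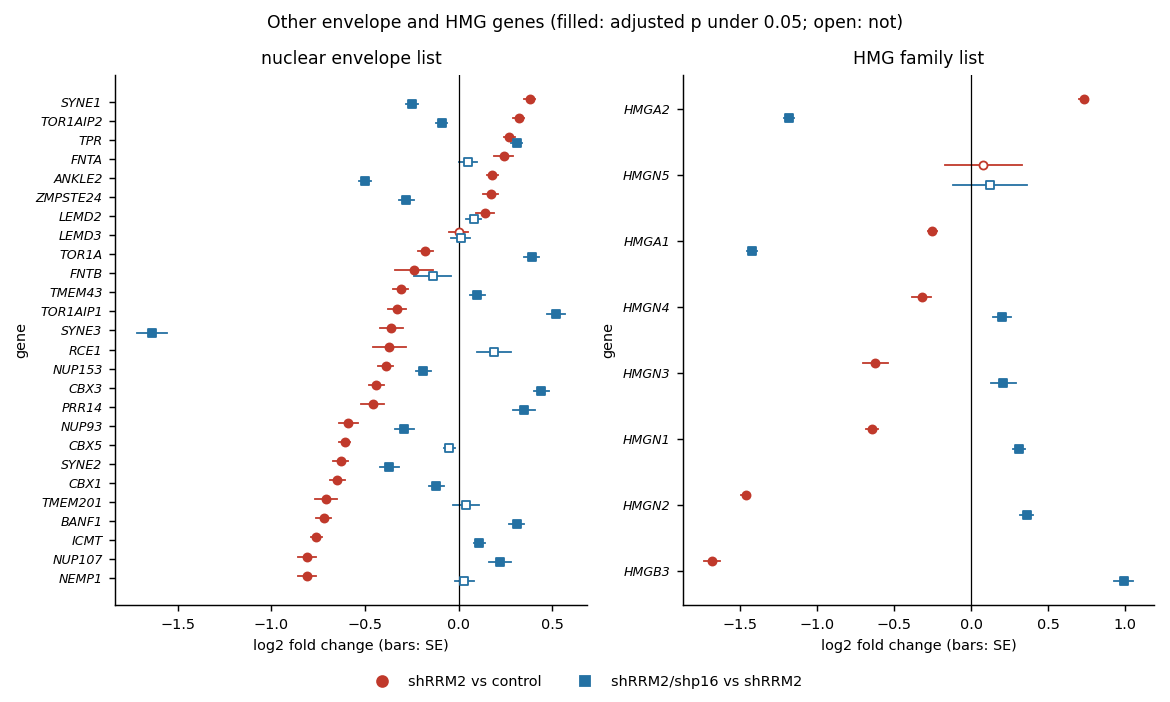
Log2 fold change with SE (horizontal axes) of the other nuclear envelope genes (left) and the other high mobility group genes (right), in shRRM2 against control (red circles) and shRRM2/shp16 against shRRM2 (blue squares). Filled symbols passed an adjusted p of 0.05; SYNE3 at -1.64, HMGA1 at -1.42 and HMGA2 at -1.18 are the lowest blue squares.

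The authors' deposited table gives its own log2 fold changes for shRRM2/shp16 against shRRM2. In the authors' deposited table LMNB1 was 0.59 (q = 4.4e-04), HMGB1 0.57 (q = 4.4e-04), HMGB2 0.45 (q = 4.4e-04), TMPO 0.50 (q = 0.00855) and LBR 0.42 (q = 0.0216). LMNA was -0.77 (q = 4.4e-04) in the authors' deposited table. The members without a q under 0.05 in the authors' deposited table were SUN2 at 0.10 (q = 0.879), SUN1 at -0.28 (q = 0.311), LMNB2 at -0.13 (q = 0.528) and EMD at -0.01 (q = 0.963). For SUN2 the count fit gave 0.36 ± 0.04 (adjusted p = 3.7e-10), the member for which these sources differed most.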

How the data were processed

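RNA of 9 libraries was sequenced after depletion of ribosomal RNA, per the labels' protocols. The authors deposited raw read counts per gene for each library, and a table with log2 RPKM values per library and the authors' own log2 fold changes, p-values and q-values. TopHat2 2.0.9, Cufflinks 2.0.2, Cuffdiff and GRCh38 are named in the submitters' processing notes; annotation release and strand setting are not given in the sources used here. The number of per-sample columns without a matching sample was 0. Gene symbols were read from the deposited table and positions from GENCODE 29.

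Counts were tested with edgeR 4.0.16 (R 4.3.3): filterByExpr (16561 genes, 99.8% of counts), TMM scaling, 1 quasi-likelihood fit of all 9 libraries with 6 residual degrees of freedom, two-sided tests, Benjamini-Hochberg adjustment over all genes tested and a threshold of 0.05. Lines that name no gene, whose shares of reads the report gives, stayed out. CPM is counts over the TMM-scaled library size, whereas RPKM values are not TMM-scaled. Shares were compared by exact permutation tests (scipy 1.17.1). Read counts lack molecular identifiers, so counting error understates the error. Alternatives were RLE factors, DESeq2 1.42.0, other filters, only the 6 libraries compared, a replicate block, limma 3.58.1 on RPKM and leaving out each library; limma on log2(RPKM + 1) and without the mismatched column were added after seeing the data. On simulated counts the fit found 150 of 200 altered genes (90.3% where the fold was 2) and made 13 false calls in 16148 genes. Only those 200 genes were altered, in shRRM2, whereas 60.9% of all genes tested passed in shRRM2 against control.

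The members and all lists were chosen with earlier results of these data known. All members are named. From the nuclear envelope, high mobility group and cell cycle lists the 3 highest and 3 lowest significant log2 fold changes (mean log2 CPM 1 or more) are named in each comparison. The cell type marker lists are given by their sums, and the fibroblast list also by its calls in shRRM2/shp16 against control. CBX1, CBX5, BANF1, ZMPSTE24, LYZ, the endothelial genes and the shRRM2 value of CBX3 fall outside that rule and were chosen after they were seen, as were the genes named for not passing.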

Additional observations from a re-analysis of the deposited data

How the results depend on the processing

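Of 600 member log2 fold changes recomputed under alternatives, 578 kept their direction and their side of the threshold, 19 lost the call, 3 gained it and none reversed. In shRRM2/shp16 against control all 200 kept theirs. The 3 gains were SUN1 in shRRM2 against control, and the 19 losses were all in shRRM2/shp16 against shRRM2 with limma on RPKM. There the members called fell from 9 to 4 on the deposited log2 RPKM with pseudocount 1, with and without the filter, to 5 on log2(RPKM + 0.1), to 5 on log2(RPKM + 1), and to 8 with the mismatched column left out. Without a filter, limma on the deposited values called 6124 genes in shRRM2 against control in place of 10079. It called 4 high mobility group genes in place of 7 in shRRM2/shp16 against shRRM2. Calls were 52.3% higher on counts and 62.4% with limma on deposited values in shRRM2/shp16 against shRRM2, and 48.1% and 59.5% in shRRM2/shp16 against control. Deviations from the group means correlated at -0.02 to 0.049 between libraries of the same letter and at -0.048 to 0.036 between different letters. This does not show whether a letter marks a shared culture or day. With a replicate block 9, 9 and 10 members were called in the 3 comparisons and 10101, 10134 and 10388 genes in all, with no member call changed.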

Other observations

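One deposited log2 RPKM column, that of shRRM2 replicate c, did not match its count file: 4.9% of 13973 genes compared came within 1% of the value from counts, against 100% in each of the other 8 columns. Among the members the deposited RPKM of LMNB1 in this column was 22.8, where the counts give 12.4, a ratio of 1.84. The ratio was 1.65 for LBR, 1.44 for TMPO and for HMGB2, 1.28 for HMGB1, 1.22 for LMNB2, 1.2 for EMD, 1.17 for SUN2, 1.0 for SUN1 and 0.926 for LMNA. The members with the highest ratios were those that fell most in shRRM2 by counts. Values from counts were used throughout for the main results, and the cause of the mismatch was not tested.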
